A study of Homo sapiens with 9 samples.

Results

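The 38 genes described here encode the sensors, transcription factors, chaperones, disulfide isomerases and degradation factors of the endoplasmic reticulum (ER) and its unfolded protein response, and they were taken by symbol from a list of such genes. They are 38 of the 19317 genes in the deposited table. All measurements come from the established human cell line HepG2, whose source was a hepatocellular carcinoma, and every sample carries the genotype label WT. The OA group (3 samples) was kept for 6 hours in DMEM with 25 µM oleic acid, a fatty acid given in 11% bovine serum albumin (BSA) in PBS. The DNL group (3 samples), named for de novo lipogenesis, was kept for 1 week in DMEM. Its medium held insulin at 10 µg/ml and T0901317, a liver X receptor agonist, at 10 µM. The WT group (3 samples) was the control and was kept in RPMI. All media held 10% serum and 1% antibiotics. No sample had BSA without oleic acid, or DMEM without additions, so the effects of medium, compound, carrier and duration cannot be told apart.

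The unfolded protein response adjusts the folding capacity of the ER to its load of unfolded proteins. HSPA5 (BiP), the main ER chaperone, holds the sensors inactive, and unfolded proteins draw it away from them. The kinase PERK, encoded by EIF2AK3, slows translation. The kinase and nuclease IRE1, encoded by ERN1, splices XBP1 mRNA, and ATF6 is cut in the Golgi to release a transcription factor. ATF6 and spliced XBP1 then induce chaperones and factors of ER-associated degradation (ERAD), which returns misfolded proteins to the cytosol. Hepatocytes secrete large amounts of protein and rely on this system. Counts per gene carry no information on the splicing of XBP1, the cleavage of ATF6 or the phosphorylation of PERK and IRE1.

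Promoter stretches of 6 of the genes are shown because they carry the ER stress response elements through which ATF6 and XBP1 are known to act. They are from RefSeq (GRCh38.p14), 5′ to 3′ on the strand of the gene, and end where the gene begins in RefSeq or in GENCODE release 29. Capitals mark matches on either strand to ERSE (CCAAT, any 9 bases, CCACG), ERSE-II (ATTGG, any base, CCACG) or UPRE (TGACGTGG). The stretches are chr9:125241344-125241593 (minus strand) for HSPA5, chr11:119057206-119057455 (minus) for HYOU1, chr22:21642052-21642260 (plus) for SDF2L1, chr19:12938359-12938577 (plus) for CALR, chr16:56931892-56932047 (plus) for HERPUD1 and chr22:28800598-28800819 (minus) for XBP1.
HSPA5: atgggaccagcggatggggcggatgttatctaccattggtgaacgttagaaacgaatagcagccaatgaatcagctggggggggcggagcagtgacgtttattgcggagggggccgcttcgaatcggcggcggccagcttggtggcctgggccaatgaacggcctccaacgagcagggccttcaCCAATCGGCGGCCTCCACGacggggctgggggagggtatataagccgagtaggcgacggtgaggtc
HYOU1: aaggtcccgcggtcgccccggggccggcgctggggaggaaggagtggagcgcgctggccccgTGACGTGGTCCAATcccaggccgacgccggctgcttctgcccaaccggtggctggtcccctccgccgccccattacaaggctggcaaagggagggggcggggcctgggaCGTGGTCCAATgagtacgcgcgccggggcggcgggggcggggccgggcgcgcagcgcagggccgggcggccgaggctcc
SDF2L1: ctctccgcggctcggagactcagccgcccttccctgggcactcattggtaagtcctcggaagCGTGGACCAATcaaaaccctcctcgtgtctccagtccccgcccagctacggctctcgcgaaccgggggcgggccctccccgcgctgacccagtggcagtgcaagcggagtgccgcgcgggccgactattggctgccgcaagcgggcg
CALR: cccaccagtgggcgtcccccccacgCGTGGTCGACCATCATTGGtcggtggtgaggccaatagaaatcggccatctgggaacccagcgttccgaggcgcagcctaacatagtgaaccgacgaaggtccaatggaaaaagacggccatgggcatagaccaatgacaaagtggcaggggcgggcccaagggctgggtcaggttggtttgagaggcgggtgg
HERPUD1: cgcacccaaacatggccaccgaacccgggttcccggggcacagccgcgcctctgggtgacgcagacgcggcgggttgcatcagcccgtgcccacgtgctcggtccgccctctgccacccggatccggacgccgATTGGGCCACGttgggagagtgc
XBP1: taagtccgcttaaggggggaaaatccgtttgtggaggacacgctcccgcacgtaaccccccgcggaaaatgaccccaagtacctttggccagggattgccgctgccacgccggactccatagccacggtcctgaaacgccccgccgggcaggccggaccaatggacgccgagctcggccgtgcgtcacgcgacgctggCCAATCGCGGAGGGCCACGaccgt
HSPA5, CALR and XBP1 each hold an ERSE, at positions -66 to -48, -225 to -207 and -52 to -34 from the RefSeq start. SDF2L1 and HERPUD1 hold an ERSE-II. HYOU1 holds 2 ERSE-II matches, of which the distal one overlaps its UPRE.

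Total estimated counts were 7836520 to 28636903 in OA, 16447398 to 36147431 in DNL and 26425694 to 43043347 in WT, and OA replicate 3 was the shallowest library. Levels below are TMM-scaled CPM (counts relative to a common library total), a scale that is not corrected for gene length, so they are compared between samples and not between genes. Genes were tested with edgeR's quasi-likelihood test and a call is a Benjamini-Hochberg adjusted p (over 13636 genes) below 0.05. SE stands for standard error, here of log2 fold changes. The labels do not say whether replicates are separate cultures, and the p-values reflect only how far these samples differ, possibly for technical reasons. In bulk RNA, fewer cells of a type and less RNA per cell cannot be told apart.

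Some marker genes of another cell type differed in the OA libraries. Of the 6 fibroblast and stellate cell markers, 2 were called higher in OA than in WT, 1 was called lower and 3 were not called. The share called higher (33.3%) was near the 30.4% of all genes tested. The median log2 fold change of the 6 was 4.33, however, beside -0.03 over all genes. The summed level of the 6 was 95.2, 222 and 1039 CPM in OA replicates 1, 2 and 3. It was 90.5 to 92.6 CPM in DNL and 71.0 to 77.0 CPM in WT. COL1A2, a collagen chain, was at 10.2, 41.1 and 260 CPM in OA and had no counts in any DNL or WT library. The 11 hepatocyte markers summed to 14531 to 16564 CPM in OA, 78125 to 80281 CPM in DNL and 44406 to 46052 CPM in WT. In OA against WT 10 of these 11 fell, where 29.7% of all genes were called lower. For DNL the same 11 markers gave 8 rises and 2 falls against WT. The shares over all genes there were 27.1% higher and 26.8% lower, so the share of markers that fell (18.2%) was below that of all genes. The 5 cholangiocyte markers summed to 802 to 955 CPM in OA, 844 to 954 CPM in DNL and 459 to 475 CPM in WT, with CFTR at 0 throughout and KRT7 at 0 in DNL and WT. The 5 leukocyte markers, with the T cell gene CD3E at 0 in every library, summed to 1057 to 1092 CPM in OA, 1618 to 1712 CPM in DNL and 979 to 990 CPM in WT. The 5 endothelial markers reached at most 6.92 CPM in any library. The part of the hepatocyte and cholangiocyte differences in the results below was not tested.

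In OA, most of the ER genes were more abundant than in WT. Of 37 tested, 25 were called higher and 8 lower, against 30.4% and 29.7% of all genes tested, and 11 were higher by at least 2-fold, against 8.88% of all genes. Their median log2 fold change was 0.67, beside -0.03 over all genes. In DNL the larger number were lower than in WT, with 7 called higher and 22 lower, against 27.1% and 26.8% of all genes, and a median of -0.34 beside -0.02 over all genes. DERL3, a derlin of ERAD, had no counts in any of the 9 libraries and was not tested. A count of 0 allows a level of up to 3 counts, a limit that covers counting error only. Before TMM scaling that is 0.0697 CPM in WT replicate 1 and 0.383 CPM in OA replicate 3.

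Both comparisons share the WT samples. The DNL split depends on the scaling: with library totals alone, 32.2% of all calls in DNL against WT were higher, beside 50.3% with TMM, and the median of all genes moved by -0.17. In OA against WT the same change of scaling gave 56.5% beside 50.5%. A fit without OA replicates 2 and 3 was chosen after seeing the data. In it the 25 genes called higher with all samples kept positive log2 fold changes against WT. The 8 called lower kept negative ones, but ATF6B was at -0.58 and P4HB at -0.08, beside -0.94 and -0.22 with all samples. The lone OA sample, which itself had COL1A2 at 10.2 CPM, is then assumed to vary like the other groups. The part of the RNA that carries collagen in the OA results was not tested.

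**Figure D1:**
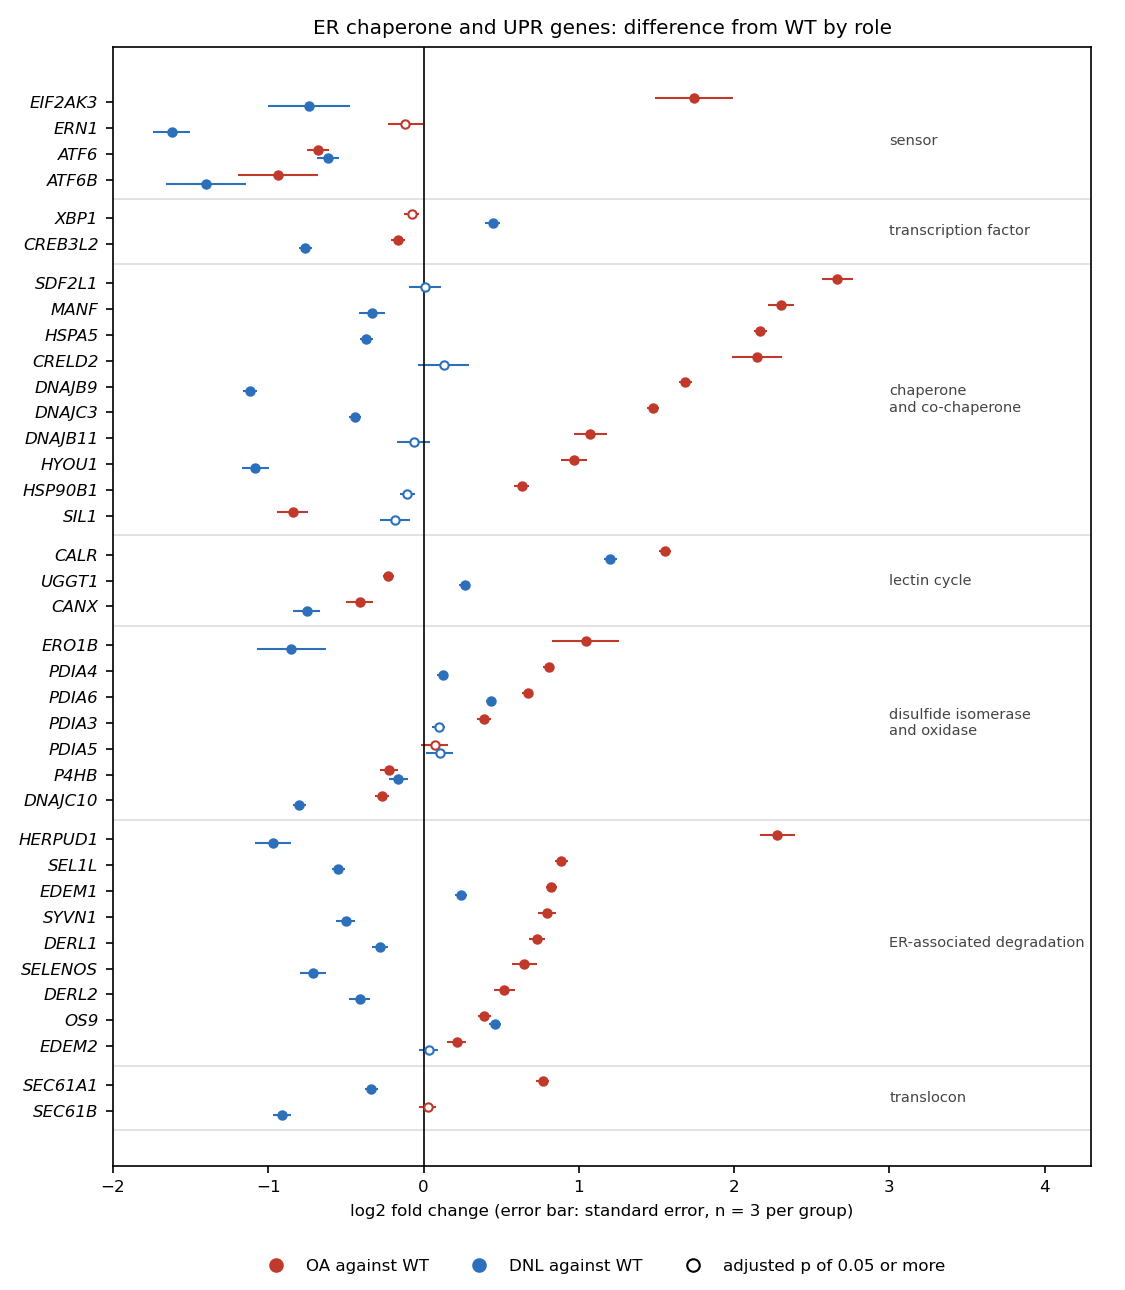
Log2 fold change of each of the 37 tested genes, grouped by role, in OA against WT and in DNL against WT. Bars are SE, filled points were called, and the vertical line marks no change. Chaperones and ERAD genes lie mostly right of the line in OA, with HSPA5 at 2.17 in OA and -0.37 in DNL.

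The share of all counts taken by the 38 genes gives the size of the difference. It was 1.83%, 1.90% and 1.91% in OA, 0.783%, 0.800% and 0.784% in DNL, and 0.972%, 0.978% and 0.963% in WT. The mean was 1.88% ± 0.0390 in OA, 0.789% ± 0.00947 in DNL and 0.971% ± 0.00800 in WT (SD, n = 3). The 3 groups did not overlap, with OA highest and DNL lowest. HSPA5 made up 26.9% of the counts of the 38 genes in OA, 9.40% in DNL and 11.1% in WT.

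**Figure D2:**
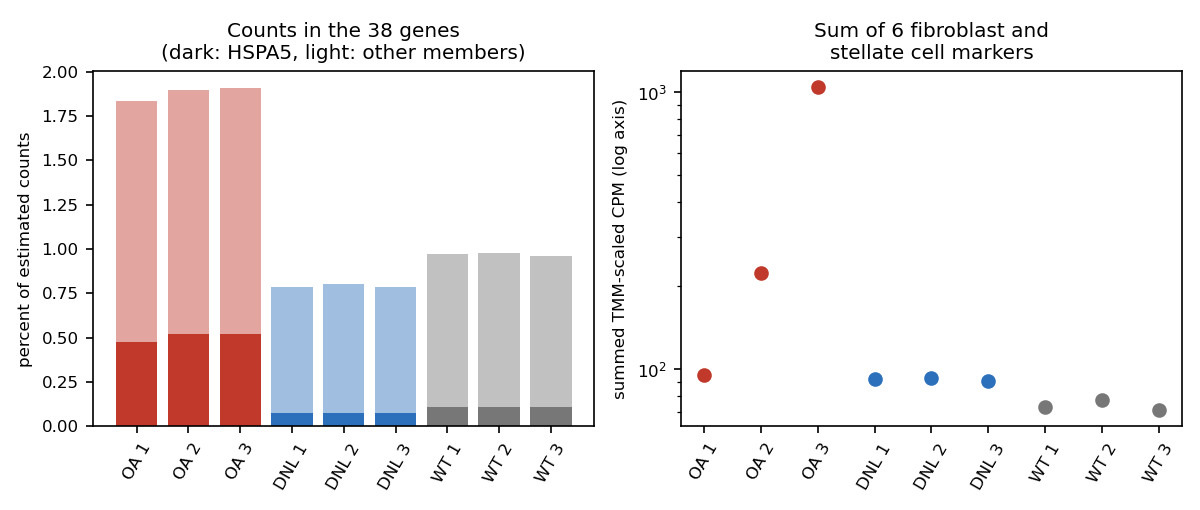
Share of all counts taken by the 38 genes, in percent (dark for HSPA5, light for the others), and summed level of fibroblast and stellate cell markers, in CPM on a log axis, for each library of OA, DNL and WT. In OA replicates 1, 2 and 3 the share is 1.83%, 1.90% and 1.91%, and the marker sum is 95.2, 222 and 1039 CPM. A link between the share and the marker sum was not tested.

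The sensors did not move together in OA, where 1 of 4 rose and 2 fell, while all 4 fell in DNL. Of all genes tested, 30.4% rose and 29.7% fell in OA, and 26.8% fell in DNL. EIF2AK3 (chromosome 2, 88556741 to 88627576), which encodes PERK, had 71.1, 89.7 and 66.6 CPM in OA, 16.5, 16.9 and 7.81 CPM in DNL, and 23.1, 22.4 and 22.9 CPM in WT. Every OA library lay above every other library. It rose 3.35-fold in OA against WT (log2 fold change 1.74, SE 0.250, adjusted p = 0.000463). In DNL it fell by 0.74 on the log2 scale (SE 0.263, adjusted p = 0.0459), with adjusted p = 0.0706 and no call once OA replicate 1 was left out, 0.0600 without OA replicate 3, and 0.105, 0.0921 and 0.0963 without WT replicates 1, 2 and 3.

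ERN1 (chromosome 17, 64039142 to 64130819), which encodes IRE1, had 167, 186 and 178 CPM in OA, 64.9, 70.9 and 52.3 CPM in DNL, and 178, 181 and 219 CPM in WT. OA and WT overlapped, and the difference between them was not called (log2 fold change -0.12, SE 0.113, adjusted p = 0.391). All DNL libraries were below all others, and ERN1 fell to 0.325 of its WT level in DNL (log2 fold change -1.62, SE 0.117, adjusted p = 2.14e-06). ATF6 (chromosome 1, 161766294 to 161964070) had 82.0, 77.2 and 84.6 CPM in OA, 82.6, 93.6 and 78.3 CPM in DNL, and 119.9, 137 and 132 CPM in WT. It was lower in both treated groups than in WT, with log2 fold changes of -0.68 in OA (adjusted p = 3.7e-06) and -0.61 in DNL (adjusted p = 9.88e-06).

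ATF6B (chromosome 6, 32115264 to 32128253), a relative of ATF6, had 28.4, 18.1 and 20.3 CPM in OA, 13.9, 15.6 and 18.7 CPM in DNL, and 47.6, 51.0 and 28.2 CPM in WT. WT replicate 3 lay inside the OA range, and the gene shares exon bases with TNXB on the same strand, so its counts are uncertain. It was called lower in OA (log2 fold change -0.94, adjusted p = 0.0131), which did not hold when OA replicate 2 (adjusted p = 0.0569) or OA replicate 3 (adjusted p = 0.0517) was left out, and without both it was -0.58 (adjusted p = 0.300). In DNL it was lower as well (log2 fold change -1.40, adjusted p = 0.00184).

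The transcription factors moved in different directions. XBP1 (chromosome 22, 28794555 to 28800597) had 246, 281 and 269 CPM in OA, 374, 372 and 397 CPM in DNL, and 282, 277 and 281 CPM in WT. The DNL libraries were the highest, with a 1.36-fold rise over WT (log2 fold change 0.44, SE 0.0476, adjusted p = 4.77e-06). In OA the difference from WT was not called (log2 fold change -0.08, adjusted p = 0.186), but it was called lower without OA replicate 2 (-0.12, adjusted p = 0.0493) and without OA replicates 2 and 3 (-0.19, adjusted p = 0.0113). CREB3L2 (chromosome 7, 137874979 to 138002067), a membrane-bound factor that promotes secretory transport, had 338, 365 and 366 CPM in OA, 237, 238 and 232 CPM in DNL, and 393, 419 and 387 CPM in WT. It was lower than WT in OA (log2 fold change -0.17, adjusted p = 0.00504; with library totals alone -0.10, adjusted p = 0.0588) and in DNL (-0.76, adjusted p = 1.23e-08).

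**Figure D3:**
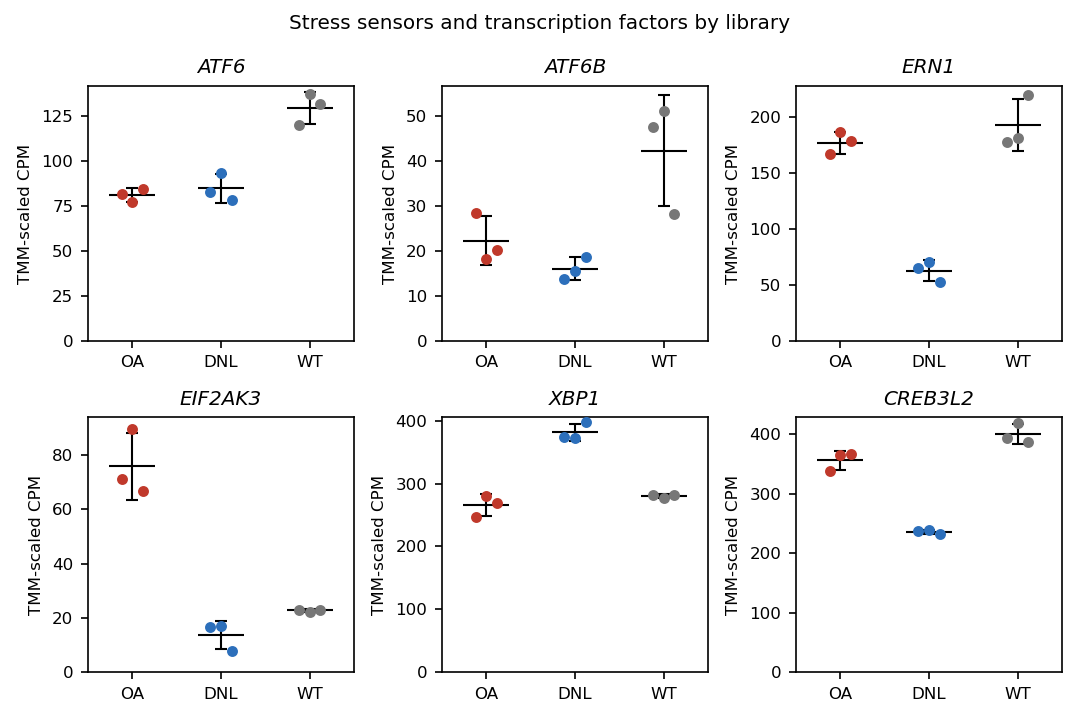
TMM-scaled CPM of ATF6, ATF6B, ERN1, EIF2AK3, XBP1 and CREB3L2 in each library of OA, DNL and WT. Points are libraries, and horizontal lines and bars are the mean and SD of 3. EIF2AK3 is highest in OA, XBP1 is highest in DNL, and ERN1 is lowest in DNL.

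Of the 10 chaperones and their cofactors, 9 rose in OA and 1 fell, against 30.4% and 29.7% of all genes tested. In DNL 5 fell, against 26.8% of all genes. HSPA5 (chromosome 9, 125234853 to 125241330) had 4422, 4894 and 4852 CPM in OA, 809.9, 835 and 795 CPM in DNL, and 1072, 1045 and 1031 CPM in WT. The 3 groups were separate, with OA highest. HSPA5 averaged 4723 ± 261 CPM in OA and 1049 ± 20.6 CPM in WT, a 4.50-fold rise (log2 fold change 2.17, SE 0.0446, adjusted p = 2.26e-12), and 813 ± 20.2 CPM in DNL, a log2 fold change of -0.37 against WT (adjusted p = 1.05e-05).

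The J-domain co-chaperones DNAJB9, DNAJC3 and DNAJB11, which act on HSPA5, rose in OA. DNAJB9 (chromosome 7, 108569568 to 108574850), which also restrains IRE1, had 270.3, 290.0 and 277 CPM in OA, 39.4, 39.9 and 40.8 CPM in DNL, and 88.3, 87.7 and 84.2 CPM in WT. It rose 3.22-fold in OA (log2 fold change 1.69, adjusted p = 1.28e-11) and fell by 1.12 on the log2 scale in DNL (adjusted p = 6.88e-10). DNAJC3 (chromosome 13, 95677139 to 95794989), another J-domain protein, had 437, 443 and 449 CPM in OA, 116, 115 and 119 CPM in DNL, and 155, 166 and 156 CPM in WT. Its log2 fold change was 1.48 in OA (adjusted p = 1.33e-11) and -0.44 in DNL (adjusted p = 8.53e-07). DNAJB11 averaged 83.0 ± 10.6 CPM in OA, 37.8 ± 3.64 CPM in DNL and 39.5 ± 4.23 CPM in WT, and its log2 fold change against WT was 1.07 in OA (adjusted p = 3.14e-06) and -0.06 in DNL (adjusted p = 0.644).

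SIL1 (chromosome 5, 138946720 to 139293557), a nucleotide exchange factor of HSPA5, was the member of this group that fell in OA. It had 9.87, 10.6 and 11.3 CPM in OA, 17.6, 15.2 and 17.0 CPM in DNL, and 18.5, 20.2 and 18.1 CPM in WT. OA libraries were all below the others (log2 fold change in OA against WT -0.84, SE 0.103, adjusted p = 1.17e-05), and the DNL difference was not called (-0.19, adjusted p = 0.124), but was called lower with library totals alone (-0.35, adjusted p = 0.00739). HYOU1, the other exchange factor, averaged 1041 ± 106 CPM in OA, 251 ± 4.91 CPM in DNL and 532 ± 56.6 CPM in WT. It rose by 0.97 in OA (adjusted p = 4.3e-06) and fell by 1.08 in DNL (adjusted p = 2.61e-06), both on the log2 scale.

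SDF2L1, a cofactor that keeps clients of HSPA5 soluble, rose 6.34-fold in OA against WT, by a log2 fold change of 2.66 (SE 0.0996, adjusted p = 2.27e-10). It had 54.6, 49.9 and 47.0 CPM in OA, 8.50, 8.52 and 7.11 CPM in DNL, and 8.13, 7.55 and 8.23 CPM in WT. DNL and WT overlapped (log2 fold change 0.01, adjusted p = 0.941; -0.16 with library totals alone). MANF, a secreted ER protein that binds HSPA5, had 183, 203 and 192 CPM in OA, 30.1, 34.6 and 28.96 CPM in DNL, and 43.02, 39.2 and 34.7 CPM in WT. Its log2 fold change was 2.30 in OA (adjusted p = 2.47e-10) and -0.33 in DNL (adjusted p = 0.00567). CRELD2, an ER protein induced by stress, averaged 24.2 ± 4.13 CPM in OA, 5.96 ± 0.813 CPM in DNL and 5.46 ± 0.641 CPM in WT, with a log2 fold change of 2.14 in OA (adjusted p = 1.36e-07) and 0.13 in DNL (adjusted p = 0.530; -0.04 with library totals alone).

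HSP90B1 (chromosome 12, 103930107 to 103953645), the ER member of the HSP90 family (GRP94), had 1012, 1112 and 1163 CPM in OA, 673, 640.5 and 661 CPM in DNL, and 736, 693 and 693 CPM in WT. All OA libraries were above all others, a 1.55-fold rise over WT (log2 fold change 0.63, SE 0.0495, adjusted p = 2.03e-07). In DNL the log2 fold change was -0.10 (adjusted p = 0.0940), which was called lower with library totals alone (-0.27, adjusted p = 0.000222), in a fit of the 6 samples compared (adjusted p = 0.0462) and without OA replicate 1 (adjusted p = 0.0224).

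**Figure D4:**
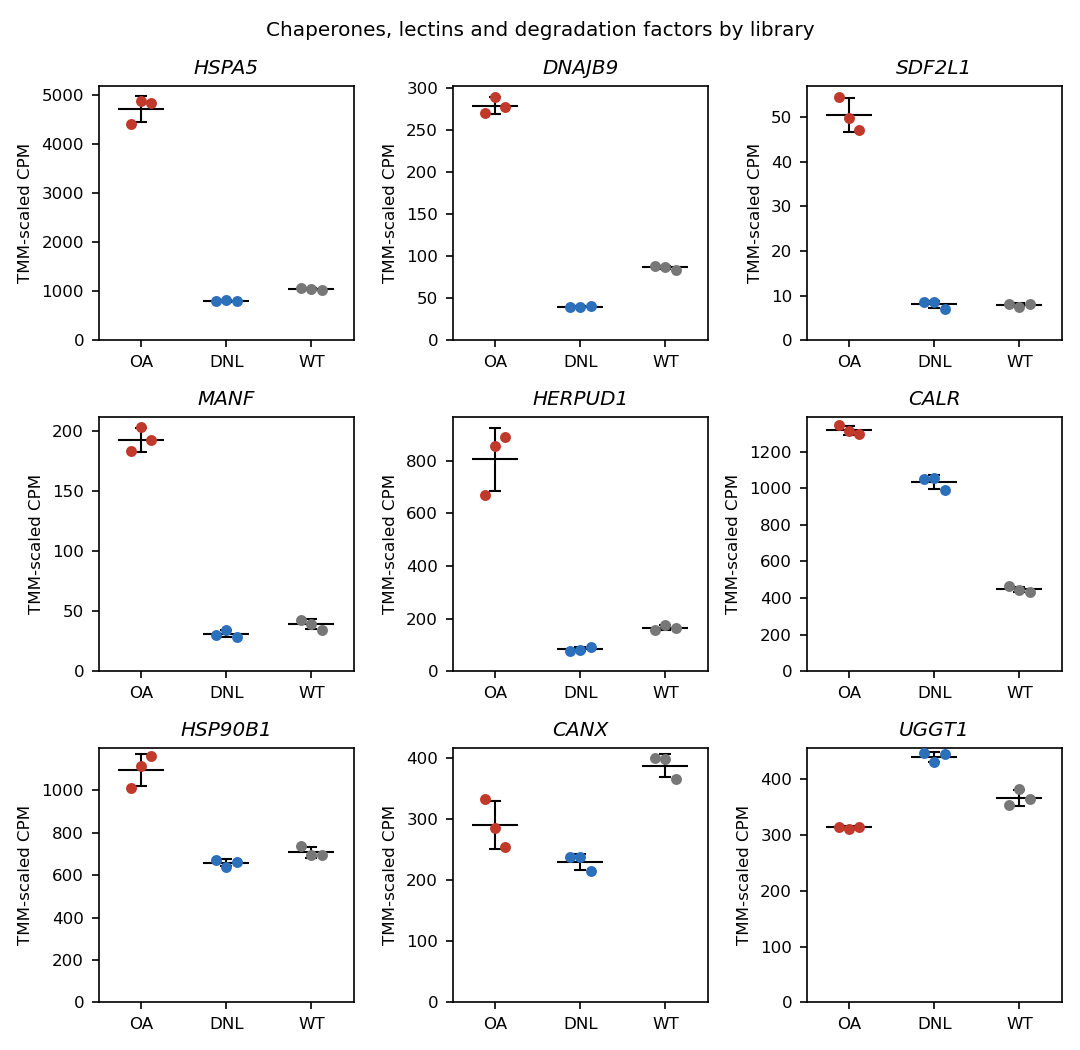
TMM-scaled CPM of HSPA5, DNAJB9, SDF2L1, MANF, HERPUD1, CALR, HSP90B1, CANX and UGGT1 in each library of OA, DNL and WT, with the mean and SD of 3. HSPA5 sits at 4422 to 4894 CPM in OA, and CALR is also raised in DNL, at 989 to 1056 CPM.

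The lectin cycle, which retains glycoproteins until they are folded, split by gene. CALR (chromosome 19, 12938578 to 12944489), the soluble lectin chaperone calreticulin, had 1343, 1313 and 1294 CPM in OA, 1052, 1056 and 989 CPM in DNL, and 464, 446 and 435 CPM in WT. Both treated groups were above WT, by 2.94-fold in OA (log2 fold change 1.55, adjusted p = 1.07e-11) and 2.30-fold in DNL (1.20, adjusted p = 7.82e-11), and it was the member with a rise of at least 2-fold in DNL, against 7.21% of all genes. CANX (chromosome 5, 179678628 to 179730925), its membrane-bound counterpart calnexin, had 333, 286 and 255 CPM in OA, 239, 238 and 215 CPM in DNL, and 400.4, 398 and 366 CPM in WT. It was lower in both, by log2 fold changes of -0.41 in OA (adjusted p = 0.00186) and -0.75 in DNL (adjusted p = 3.21e-05). UGGT1 (chromosome 2, 128091200 to 128195677), which reglucosylates misfolded glycoproteins, had 315, 312 and 314 CPM in OA, 447, 431 and 444 CPM in DNL, and 354, 382 and 365 CPM in WT. The groups were separate, with a log2 fold change of -0.23 in OA (adjusted p = 0.000174) and 0.26 in DNL (adjusted p = 5.37e-05).

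Of 7 disulfide isomerases and oxidases, 4 rose (57.1%) and 2 fell in OA, against 30.4% and 29.7% of all genes tested. In DNL 2 rose and 3 fell (42.9%), against 27.1% and 26.8% of all genes. The shares lower in OA (28.6%) and higher in DNL (28.6%) were near those of all genes, 29.7% and 27.1%. PDIA4 (chromosome 7, 149003062 to 149028641) had 694, 678 and 669 CPM in OA, 419, 439 and 415 CPM in DNL, and 396, 389 and 383 CPM in WT. It rose by 0.81 on the log2 scale in OA (adjusted p = 1.11e-09) and by 0.12 in DNL (adjusted p = 0.0107). The DNL call was lost without WT replicate 3 (adjusted p = 0.0518), and with library totals alone the value was -0.04. PDIA6 (chromosome 2, 10783391 to 10837977), an isomerase that also binds IRE1, had 677, 684 and 669.9 CPM in OA, 584, 577 and 564 CPM in DNL, and 429, 429.5 and 418 CPM in WT. Both treated groups exceeded WT (log2 fold change 0.67 in OA, adjusted p = 2.71e-09, and 0.43 in DNL, adjusted p = 1.83e-07).

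PDIA3 (chromosome 15, 43746392 to 43773279), the isomerase that works with the lectins, had 521, 489 and 476 CPM in OA, 401, 419 and 394 CPM in DNL, and 390.4, 375 and 369 CPM in WT. It rose in OA (log2 fold change 0.39, adjusted p = 4.79e-06). In DNL it was at 0.10 (adjusted p = 0.0728), called higher without OA replicate 1 (adjusted p = 0.0348) or WT replicate 1 (adjusted p = 0.0394), and -0.07 with library totals alone. It was also called higher with DESeq2 (adjusted p = 0.0326), with RLE size factors (adjusted p = 0.0481) and in a fit of the 6 samples compared (adjusted p = 0.0306). DNAJC10 (chromosome 2, 182716041 to 182794464), a reductase that serves ERAD, had 284, 279.7 and 299 CPM in OA, 192, 198 and 206 CPM in DNL, and 358, 335 and 346 CPM in WT. It was lower in both, with log2 fold changes of -0.27 in OA (adjusted p = 0.000128) and -0.80 in DNL (adjusted p = 6.98e-09).

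P4HB (chromosome 17, 81843159 to 81860694), the classical protein disulfide isomerase, had 1167, 1012 and 1001 CPM in OA, 1137, 1143 and 1033 CPM in DNL, and 1265, 1208 and 1233 CPM in WT. WT was the highest group. It was called lower in OA (log2 fold change -0.22, adjusted p = 0.00634), a call lost without OA replicates 2 and 3 (-0.08, adjusted p = 0.261). The DNL call (-0.16, adjusted p = 0.0355) was lost without DNL replicate 1 (adjusted p = 0.0543) or 3 (0.139), or WT replicate 1 (0.126), 2 (0.0537) or 3 (0.0782). ERO1B, an oxidase that recharges the isomerases, averaged 15.99 ± 0.359 CPM in OA, 4.32 ± 0.748 CPM in DNL and 7.70 ± 2.54 CPM in WT, with log2 fold changes of 1.04 in OA (adjusted p = 0.00107) and -0.85 in DNL (adjusted p = 0.00643). The related oxidase ERO1A, which is not among the genes described, went the other way. It averaged 121 ± 6.26 CPM in OA, 351 ± 11.5 CPM in DNL and 152 ± 6.92 CPM in WT. PDIA5 averaged 31.1 ± 1.03 CPM in OA, 31.9 ± 3.55 CPM in DNL and 29.6 ± 1.58 CPM in WT, and no comparison called it. It shares exon bases with SEC22A on the same strand, so its counts are uncertain.

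All 9 ERAD genes tested rose in OA, against 30.4% of all genes tested. In DNL 6 fell and 2 rose, against 26.8% and 27.1% of all genes. HERPUD1, a membrane protein that helps assemble the retrotranslocation complex, had 669, 857 and 888 CPM in OA, 77.4, 82.9 and 93.5 CPM in DNL, and 156, 175 and 166 CPM in WT. It rose 4.85-fold in OA (log2 fold change 2.28, SE 0.115, adjusted p = 2.96e-07) and fell by 0.97 on the log2 scale in DNL (adjusted p = 0.000111). SEL1L (chromosome 14, 81471549 to 81533861), the adaptor of the ubiquitin ligase SYVN1 (HRD1), had 606, 647 and 662 CPM in OA, 243, 229 and 236 CPM in DNL, and 354, 345 and 336 CPM in WT. Its log2 fold change was 0.89 in OA (adjusted p = 1.95e-09) and -0.55 in DNL (adjusted p = 2.1e-07). SYVN1 itself averaged 303 ± 27.2 CPM in OA, 123 ± 2.37 CPM in DNL and 175 ± 8.35 CPM in WT, with 0.80 in OA (adjusted p = 1.39e-07) and -0.50 in DNL (adjusted p = 1.39e-05). It shares exon bases with FAU on the same strand, so its counts are uncertain.

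Among the lectins and mannosidases that pick substrates, EDEM1 (chromosome 3, 5187646 to 5219957) had 268, 278 and 273 CPM in OA, 179.8, 179.6 and 187 CPM in DNL, and 154, 156 and 152 CPM in WT. It rose in both, by log2 fold changes of 0.82 in OA (adjusted p = 1.32e-09) and 0.24 in DNL (adjusted p = 0.000115), the second being 0.08 (adjusted p = 0.115) with library totals alone. OS9 averaged 192 ± 5.57 CPM in OA, 202 ± 5.92 CPM in DNL and 147 ± 3.69 CPM in WT, with log2 fold changes of 0.39 in OA (adjusted p = 3.66e-06) and 0.46 in DNL (adjusted p = 9.09e-07). EDEM2 averaged 56.8 ± 2.04 CPM in OA, 50.2 ± 1.71 CPM in DNL and 49.1 ± 2.39 CPM in WT. It rose by 0.21 in OA (adjusted p = 0.00820) and was at 0.03 in DNL (adjusted p = 0.670; -0.13 with library totals alone).

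The derlins and SELENOS, which sit at the ERAD channel, rose in OA and fell in DNL, DERL3 apart. DERL1 (chromosome 8, 123013164 to 123042423), a derlin, had 129.8, 124 and 128 CPM in OA, 64.2, 66.1 and 59.0 CPM in DNL, and 78.2, 75.1 and 76.7 CPM in WT. The groups were separate, with log2 fold changes of 0.73 in OA (adjusted p = 9.57e-08) and -0.28 in DNL (adjusted p = 0.000597). DERL2 averaged 53.6 ± 2.37 CPM in OA, 28.0 ± 1.86 CPM in DNL and 37.4 ± 0.684 CPM in WT, and SELENOS, which recruits the ATPase VCP, averaged 59.6 ± 6.83 CPM in OA, 23.2 ± 1.39 CPM in DNL and 37.97 ± 0.912 CPM in WT. Both rose in OA (log2 fold changes 0.52 and 0.65) and fell in DNL (-0.41 and -0.71).

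The translocon carries new proteins into the ER. SEC61A1 (chromosome 3, 128051641 to 128071683), its channel subunit, had 843, 852 and 889 CPM in OA, 387, 394 and 419.8 CPM in DNL, and 503, 521 and 493 CPM in WT. It rose by 0.77 in OA (adjusted p = 6.21e-09) and fell by 0.34 in DNL (adjusted p = 1.57e-05) on the log2 scale. SEC61B (chromosome 9, 99222064 to 99230615), a small subunit, had 76.7, 77.4 and 74.5 CPM in OA, 41.3, 40.5 and 37.6 CPM in DNL, and 77.9, 73.2 and 73.5 CPM in WT. OA and WT overlapped (log2 fold change 0.03, adjusted p = 0.713), and the DNL libraries were lower (-0.91, adjusted p = 2.92e-08).

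OA was also set directly against DNL, in the same fit of all 9 samples, so WT still adds to the estimated spread. Of 37 genes tested, 29 were higher in OA and 3 lower, against 30.9% and 31.9% of all genes, and 17 were higher by at least 2-fold, against 9.94% of all genes. The median log2 fold change was 0.93, beside -0.01 over all genes. With library totals alone 66.1% of all calls were higher in OA, beside 49.2% with TMM, and the median of all genes moved by 0.23. HERPUD1 was 9.51-fold higher in OA than in DNL (log2 fold change 3.25, SE 0.121, adjusted p = 2.75e-08). DNAJB9 was 6.98-fold higher (2.80, adjusted p = 2.39e-13), SDF2L1 6.29-fold (2.65, adjusted p = 1.61e-10) and HSPA5 5.81-fold (2.54, adjusted p = 2.96e-13).

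The genes lower in OA than in DNL were XBP1 (log2 fold change -0.52, adjusted p = 7.31e-07), UGGT1 (-0.49, adjusted p = 1.22e-07) and SIL1 (-0.66, adjusted p = 0.000103). ATF6 (-0.06, adjusted p = 0.472), ATF6B (0.46, adjusted p = 0.171), PDIA5 (-0.03, adjusted p = 0.778), P4HB (-0.06, adjusted p = 0.409) and OS9 (-0.07, adjusted p = 0.161) were not called. With library totals alone, P4HB and OS9 were called higher in OA (0.18, adjusted p = 0.0206, and 0.16, adjusted p = 0.00298), and ATF6 and PDIA5 were at 0.17 and 0.20. ATF6B was called higher without WT replicate 3 (adjusted p = 0.0405), and P4HB lower without OA replicate 1 (adjusted p = 0.0172). CALR was 1.28-fold higher in OA (log2 fold change 0.35, adjusted p = 4.26e-06). EDEM2, higher by 0.18 (adjusted p = 0.0201), was not called when OA replicate 2 (adjusted p = 0.0777), DNL replicate 1 (0.0698) or DNL replicate 2 (0.0704) was left out.

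Genes of the PERK arm and of the integrated stress response, which inputs other than PERK can also drive, formed a list of 16, all tested. In OA 7 rose and 4 fell (median log2 fold change 0.09), against 30.4% and 29.7% of all genes tested. The share that fell in OA (25.0%) was near that of all genes. In DNL 15 fell (median -0.72), against 26.8% of all genes, and EIF2A was the gene not called (0.08, adjusted p = 0.210). ATF4, the factor whose translation PERK promotes, had 606, 722 and 703 CPM in OA, 396, 395 and 394 CPM in DNL, and 657, 624 and 614 CPM in WT. The DNL libraries were lowest (log2 fold change -0.68), and in OA it was not called (0.10, adjusted p = 0.144). DDIT3 (CHOP), a factor linked to cell death in prolonged stress, averaged 71.05 ± 13.85 CPM in OA, 16.07 ± 0.884 CPM in DNL and 43.2 ± 1.18 CPM in WT, with log2 fold changes of 0.72 in OA and -1.42 in DNL. PPP1R15A (GADD34), which restores translation, averaged 294 ± 61.7 CPM in OA, 36.7 ± 0.522 CPM in DNL and 115 ± 1.85 CPM in WT, with 1.36 in OA and -1.64 in DNL. ATF3 rose by 2.09 in OA and fell by 0.42 in DNL on the log2 scale. SESN2, a sestrin, was at 0.08 in OA (adjusted p = 0.354) and fell by 2.01 in DNL. Those that fell in OA were CEBPG (-0.65), NUPR1 (-0.92), VLDLR (-0.73) and TNFRSF10B (-0.16).

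Other lists of secretory pathway genes were counted in the same way, and their counts are read against the shares of all genes called, 30.4% higher and 29.7% lower in OA and 27.1% higher and 26.8% lower in DNL. Of 51 other ER folding factors, 18 rose and 20 fell in OA, and 24 rose and 13 fell in DNL. AGR2, an isomerase of mucin folding, rose by 1.83 in OA, and CLGN, a calnexin homologue, fell by 2.18. ERP27 rose by 3.96 in DNL. Each moved the same way in the other treated group. AGR2 averaged 20.2 CPM in DNL and 7.26 CPM in WT, and CLGN 29.6 CPM in DNL and 39.5 CPM in WT. ERP27 averaged 3.66 CPM in OA and 0.825 CPM in WT. Of 32 genes of translocation, signal peptide cleavage and N-glycan transfer, 17 rose and 9 fell in OA, and 9 rose and 14 fell in DNL, with TRAM1, a translocon partner, up by 1.02 in OA. Of 27 other ERAD factors, 10 rose and 9 fell in OA, and 9 rose and 9 fell in DNL. VCP, the ATPase that extracts ERAD substrates, averaged 378 ± 19.1 CPM in OA and 172 ± 7.93 CPM in WT.

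Of 29 genes of ER exit and retrieval, 20 rose and 6 fell in OA, and 10 rose and 13 fell in DNL. SEC24D, a COPII cargo adaptor, averaged 313 ± 25.95 CPM in OA, 74.97 ± 3.69 CPM in DNL and 146 ± 5.93 CPM in WT. Of 11 tested heat shock genes of the cytosol and mitochondria, 9 rose and 1 fell in OA, and 3 rose and 3 fell in DNL. DNAJB1, a cytosolic co-chaperone, averaged 450.4 ± 52.4 CPM in OA, 164 ± 3.90 CPM in DNL and 139 ± 2.57 CPM in WT. Of 7 tested ER-phagy receptors, 3 fell in OA, CCPG1 by 1.12, and 1 rose and 2 fell in DNL. Of 7 tested genes for other membrane-bound stress factors and their proteases, 2 rose and 2 fell in OA, and 1 rose and 2 fell in DNL. CREB3L3, a liver factor released by cleavage in the Golgi, averaged 84.3 ± 1.56 CPM in OA, 6.20 ± 0.667 CPM in DNL and 18.1 ± 0.807 CPM in WT. MBTPS2, a protease that cuts ATF6, fell by 1.08 in OA.

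The stress response elements were searched in 300-base RefSeq windows, from 250 bases before to 50 after the start, for 35 of the 38 genes. No window was matched for PDIA3, DERL1 and DERL3. ERSE or ERSE-II was found in 11 of the 35 (31.4%), against 0.161% of all 27305 genes with a window. ERSE was in XBP1, HSPA5, HSP90B1, CRELD2, CALR, CANX, PDIA6 and ERO1B, and ERSE-II was in HYOU1, SDF2L1 and HERPUD1. These elements were described in genes of this kind, so their share here is not independent of the choice of genes. UPRE matched HYOU1 and DNAJC10, against 0.927% of all genes, and CARE (TGATGNAA), a motif bound by ATF4 with CEBP partners, matched HERPUD1 and CREB3L2, against 4.46%.

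Of the 11 genes with ERSE or ERSE-II, 9 rose in OA, CANX fell and XBP1 was not called, with a median log2 fold change of 1.04. Of the 24 with a window and neither element, 14 rose and 7 fell, with a median of 0.45. Among tested genes outside the 38, 12 of 19 with either element rose in OA (63.2%) and 2 fell, against 31.0% higher among 10978 with neither. In DNL 3 of the 11 rose and 5 fell, 4 of the 24 rose and 16 fell, and 5 of the 19 others rose and 5 fell (26.3% each), against 27.3% higher and 27.2% lower among the 10978 with neither. The 3 of 11 (27.3%) and the 5 of 19 lie at or near that share. These counts are descriptions, and a match is not shown to be a bound site.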

How the data were processed

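RNA-seq of 9 HepG2 samples (OA, DNL and WT, 3 each) was analysed from stranded, ribosomal RNA-depleted libraries of total RNA, per the labels' protocols. Groups were taken from the sample titles. The deposited values are gene-level estimated counts. Per the submitters' processing notes, the authors used FastQC 0.11.9, kallisto 0.48.0 and build GRCh38. Neither annotation release nor strand setting is given in the sources used here, so reads of overlapping genes may be split between them by the estimator. Of the genes described, 3 share exon bases with another listed gene on the same strand and 13 on the opposite strand.

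Estimated counts were rounded, filtered with filterByExpr and scaled by TMM. They were tested over 13636 genes by quasi-likelihood in edgeR 4.0.16 (R 4.3.3), in a single fit of all 9 samples with group as the factor. The common dispersion was 0.0112. The procedure was also run on simulated data in which far fewer genes changed than were called here. That run cannot test the scaling between groups. Totals of 7836520 to 43043347 per library set the precision. Alternatives used limma 3.58.1, DESeq2 1.42.0, other scalings and filters, fewer samples, a replicate block and leaving out each sample. All replicate pairs differed by more than sampling noise, so none was treated as a duplicate. Coordinates are from GENCODE release 29, and promoter sequences and motifs from RefSeq GRCh38.p14. The genes and the lists were chosen with earlier results of these data known. All 38 genes are named. Every sample's value is given for the sensors, transcription factors, HSPA5, HSP90B1, the genes of each other role with the smallest adjusted p (3 in OA, 1 in DNL), and those lower in OA. Values of SDF2L1, MANF, HERPUD1 and ERO1A were added after they were seen. From other lists, up to 2 of the largest rises and falls with at least 5 CPM in the higher group could be named, and all genes of the PERK list.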

Additional observations from a re-analysis of the deposited data

How the results depend on the processing

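Counts of called genes, over all genes and over the 38, stayed within 1.5 times under every alternative run, and so did the counts without OA replicates 2 and 3, an alternative chosen after seeing the data. Leaving out each sample in turn gave 25 to 25 of the genes higher and 7 to 8 lower in OA against WT, 6 to 8 and 20 to 22 in DNL against WT, and 28 to 30 and 3 to 4 in OA against DNL. With a replicate block the counts were 25 and 8, 7 and 22, and 29 and 3. Same-numbered samples deviated from their group means with correlations of -0.0176 to 0.0534, so no large deviation shared by number was seen. That cannot exclude that same-numbered samples were handled together. Of the called genes, 30 of 33 in OA against WT, 25 of 29 in DNL against WT and 31 of 32 in OA against DNL were called under every alternative. Without HSPA5 the share of all counts was 1.37% in OA, 0.715% in DNL and 0.864% in WT.

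With library totals alone, log2 fold changes in DNL against WT changed sign for SDF2L1 (-0.16), CRELD2 (-0.0381), PDIA3 (-0.0687), PDIA4 (-0.0424), PDIA5 (-0.0623) and EDEM2 (-0.13), and in OA against DNL for ATF6 (0.17), PDIA5 (0.20), P4HB (0.18) and OS9 (0.16). P4HB was also at 0.0797 in OA against DNL without OA replicates 2 and 3. Leaving out 1 sample moved DNAJB11 between -0.13 and 0.0372, SDF2L1 between -0.0302 and 0.0926 and EDEM2 between -0.00629 and 0.0622 in DNL against WT. In OA against DNL it moved ATF6 between -0.12 and 0.00247 and PDIA5 between -0.11 and 0.0412. In DNL against WT the EIF2AK3 call was also lost with no filter (adjusted p = 0.0679) and with 6 samples (adjusted p = 0.0762). The cause was not tested. The depth of OA replicates 1 and 3 limits genes at a few CPM, and a p that misses the threshold does not show equal levels.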
